A study of Mus musculus with 2 samples.

Results

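The 54 genes described here encode proteins of the presynaptic terminal: the SNARE proteins that fuse synaptic vesicles, their calcium sensors, the proteins of the vesicle membrane, the scaffold of the active zone and the proteins that recycle vesicles. They were chosen by name, as a list of gene symbols, and each was found by its symbol, giving 54 of the 55536 gene rows of the deposited tables. Total RNA depleted of ribosomal RNA was sequenced for 2 male mice aged 2 months, in each case from the left cerebral cortex. Both animals were B6CASTF1/J, the first-generation hybrid of C57BL/6J and CAST/EiJ, with no treatment named, and each library started from 300 ng of RNA with ERCC spike-in RNAs added. The labels give 1 group with replicates 1 and 2, so the data hold levels, ratios between related genes and the spread between the animals, but no contrast between conditions. The labels list separate tissue samples under a shared donor record, and treating them as 2 animals is an assumption. The spread is that between these samples, which may in part be technical. A hybrid carries a CAST/EiJ copy of each gene, while reads were assigned with the C57BL/6J reference, and what this did to the members' values was not tested.

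A nerve terminal holds vesicles filled with transmitter by transporters in their membrane. Active zone scaffolds hold vesicles beside calcium channels, and priming proteins bring them to a state ready for fusion. Calcium binding by synaptotagmin then triggers fusion by the SNARE complex of a vesicle protein (Vamp) with syntaxin and Snap25, after which Nsf and its adaptors take the complex apart and dynamin, amphiphysin and synaptojanin help to retrieve the membrane. Most of these proteins exist as families of paralogs, and many have forms made by alternative splicing.

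Several exons carry the transcript-form results and are shown first. Inclusion is the share of a gene's TPM (the deposited level, corrected for length and scaled to a common total per library) held by annotated transcripts that contain the exon, among transcripts that span it, and it was computed from estimated transcript levels, not from junction reads. Sequences are from GENCODE release M21 on build mm10, written 5′ to 3′ on the strand of the gene. Capitals mark the bases that differ between the paired exons of equal length.

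Snap25 has a pair of exons that replace each other in its coding sequence. The exon of Snap25-201 is at chr2:136770057-136770174 and that of Snap25-202 at chr2:136769743-136769860, both on the plus strand, and 31 of their 118 bases differ.
Snap25-201 exon: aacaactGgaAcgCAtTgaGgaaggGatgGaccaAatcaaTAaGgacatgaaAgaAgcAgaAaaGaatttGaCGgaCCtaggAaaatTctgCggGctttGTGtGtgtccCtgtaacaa
Snap25-202 exon: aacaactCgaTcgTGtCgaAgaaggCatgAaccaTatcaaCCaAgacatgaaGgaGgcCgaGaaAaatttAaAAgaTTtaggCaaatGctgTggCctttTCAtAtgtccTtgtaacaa

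Dnm1, the dynamin gene, has another pair of alternative exons, on the minus strand at chr2:32333066-32333204 and chr2:32334682-32334820, with 39 of 139 bases different.
Dnm1-201 exon: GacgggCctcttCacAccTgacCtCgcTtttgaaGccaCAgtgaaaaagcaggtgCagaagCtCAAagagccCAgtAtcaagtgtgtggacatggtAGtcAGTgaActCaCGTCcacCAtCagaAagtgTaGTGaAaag
Dnm1-202 exon: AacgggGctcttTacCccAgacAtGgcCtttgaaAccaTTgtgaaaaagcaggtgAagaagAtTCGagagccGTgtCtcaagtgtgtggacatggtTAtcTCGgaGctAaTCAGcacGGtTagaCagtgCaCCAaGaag

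The priming factor genes Unc13a and Unc13b each have an optional exon of 57 bases, at chr8:71633439-71633495 on the minus strand and chr4:43260993-43261049 on the plus strand. The exons belong to different genes, yet 40 of their 57 bases are the same.
Unc13a exon: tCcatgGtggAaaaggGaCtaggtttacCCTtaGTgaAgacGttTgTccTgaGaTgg
Unc13b exon: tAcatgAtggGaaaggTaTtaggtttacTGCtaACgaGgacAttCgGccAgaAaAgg

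Short optional exons of the scaffold genes Rims1 (chr1:22593033-22593044 and chr1:22594093-22594104, minus strand) and Erc2 (chr14:28046475-28046486, plus strand) add 12 bases each. They are shown because exons this short were still called at intermediate inclusion.
Rims1 exon, 22593033: aaaggtaagtat
Rims1 exon, 22594093: gaggacaaagtg
Erc2 exon, 28046475: cttgactctcag

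All 54 members were detected, that is, both libraries reached a TPM of 1, as did 58.7% of the 22028 protein-coding genes (12934). Their TPM summed to 9759 in replicate 1 and 9570 in replicate 2 (9664 ± 134, mean ± SD, n = 2 here and throughout), which is 1.98% and 1.99% of the TPM of protein-coding genes. At least 100 TPM was reached in both libraries by 26 members, 8 stayed under 20 TPM in both, and 20 lay between. Mean counts per member ran from 147 to 57891 with a median of 6668, against 373 for all genes that passed a mean count minimum of 10, so most members were measured with little counting error. Genes of membrane fusion held 31.7% of the summed TPM with 9 members, vesicle proteins 27.1% with 12, recycling 16.0% with 6, calcium sensing 15.3% with 14, and the active zone and priming group 9.85% with 13. The calcium sensing group was formed by gene family, from the synaptotagmins, Doc2 and Rph3a. It is not limited to calcium sensors, as it includes Syt11, whose product lacks calcium binding.

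**Figure D1:**
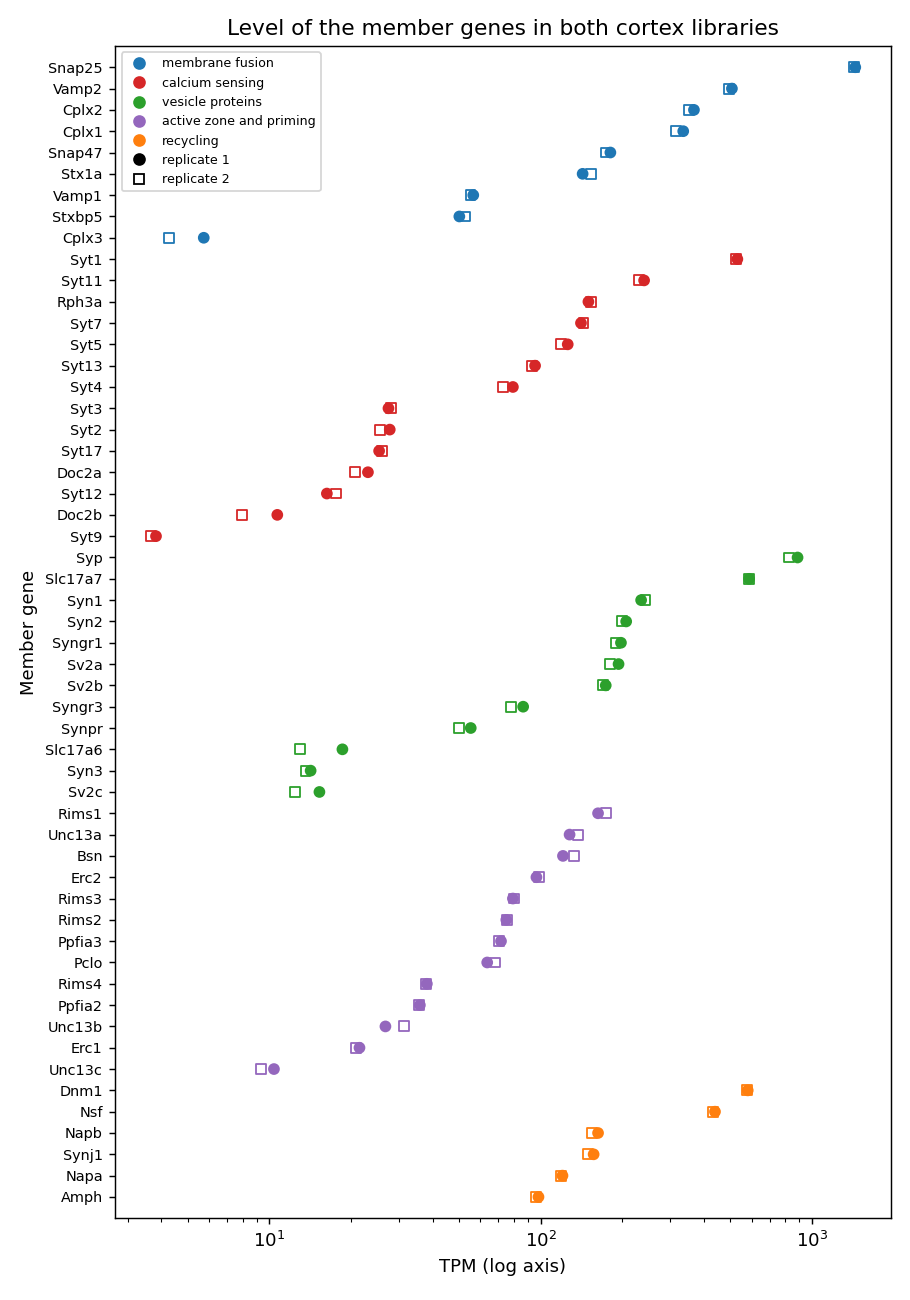
TPM (log axis) of each member in replicate 1 (filled circles) and replicate 2 (open squares), coloured by role and ordered by mean within each role. Snap25 lies highest at 1441 TPM and Syt9 lowest at 3.73, and Cplx3, Doc2b and Slc17a6 are among the genes whose libraries lie visibly apart.

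The tables cover depths of 33007629 and 32142918 expected counts. All 8 cortical glutamatergic neuron markers were detected (summed TPM 2766 and 2857 in replicates 1 and 2), as were all 8 inhibitory neuron markers (656 and 603). Markers of neighbouring tissue differed between the libraries: the 10 striatal neuron markers summed to 366 and 208 TPM, with 10 of 10 lower in replicate 2, and the choroid plexus marker Ttr was at 8.58 and 89.2, while Kl, Folr1 and Kcnj13 of the same list stayed under 3 TPM in both. Oligodendrocyte markers summed to 806 and 652, with 6 of 6 lower in replicate 2. In bulk tissue, fewer cells of a type and less RNA per cell cannot be told apart. A second deposited set of transcript values, made directly from reads and called the other quantification below, gives a second value for each level, ratio and form.

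Among the fusion genes, Snap25, the SNARE of the plasma membrane with 2 SNARE helices in 1 protein, was at 1448 and 1435 TPM and ranked 11 among detected protein-coding genes. Its relative Snap47 was at 181 and 175 TPM, so Snap25 exceeded it 8.12 ± 0.140-fold. In the other quantification the ratio was 5.33 ± 0.705, and over complete coding transcripts it was 8.38 ± 0.166 in the main tables and 9.40 ± 0.285 in the other. The syntaxin gene Stx1a was at 143 and 153 TPM (148 ± 6.74), and Stxbp5, which encodes tomosyn, an inhibitor of SNARE assembly, at 50.2 and 52.8 (51.5 ± 1.81). Snap25 thus made up 79.3% of the TPM of these 4 genes.

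The vesicle SNARE gene Vamp2 was at 508 and 494 TPM and Vamp1 at 56.5 and 55.2. Vamp2 therefore exceeded Vamp1 8.98 ± 0.0324-fold, with nearly the same ratio in both animals (9.00 and 8.95). In the other quantification the ratio was 11.6 ± 0.506, where Vamp2-204, a noncoding model of 918 bases, took 22.8% of Vamp2 against 1.07% in the main tables. Over transcripts with a complete coding sequence only, the ratios of the main and the other quantification were 8.85 and 9.31.

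The complexins, which clamp and promote SNARE-driven fusion, were led by a near tie. Cplx2 was at 368 and 352 TPM and Cplx1 at 336 and 315, a ratio of 1.11 ± 0.0150. The order turned in the other quantification, with a ratio of 0.995 ± 0.00231, but over complete coding transcripts it was 1.11 in the main tables and 1.12 in the other. In the main tables all of Cplx1 was given to Cplx1-201, and in the other 88.6 ± 1.38%. Cplx3, a complexin of retinal ribbon synapses and of the deepest cortical neurons, was far lower at 5.73 and 4.25 TPM (4.99 ± 1.05).

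The 11 synaptotagmin genes summed to 1300 ± 21.5 TPM. Syt1, the sensor for fast synchronous release, was at 532 and 525 TPM and held 40.6% of that sum. Syt11, which lacks calcium binding, followed at 241 and 230.4, then Syt7, the slower high-affinity sensor, at 141 and 144, and Syt5 at 126 and 119. Syt13 was at 94.2 ± 1.79 TPM, Syt4 at 75.9 ± 4.48, Syt3 at 27.8 ± 0.488, Syt2 at 26.6 ± 1.60, Syt17 at 25.8 ± 0.509 and Syt12 at 16.9 ± 0.877. Syt2, at 27.8 and 25.5 TPM, overlapped both Syt3 (27.5 and 28.1) and Syt17 (25.4 and 26.1), while Syt3 lay above Syt17 in both libraries. In the other quantification they were further apart, at 60.7 ± 3.15 TPM for Syt3, 40.7 ± 4.76 for Syt17 and 29.5 ± 1.18 for Syt2. Syt9, another fast sensor, was lowest at 3.82 and 3.65 TPM.

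Syt2, the fast sensor of hindbrain and some inhibitory terminals, was exceeded 19.9 ± 0.995-fold by Syt1, a ratio that differed between the quantifications. Syt2-203, an incomplete coding model of 383 bases, took 39.3% and 30.3% of Syt2 in the main tables and 0.152% in the other quantification, where the ratio was 29.6 ± 0.673. The noncoding Syt1-206 also moved, from 12.8 ± 0.0142% to 23.2 ± 0.475% of Syt1. Over complete coding transcripts the ratio was 26.0 ± 1.13 in the main tables and 22.2 ± 0.480 in the other. Syt1 over Syt7 was 3.71 ± 0.0977, and 3.75 ± 0.181 in the other quantification.

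The genes of the calcium sensing group outside the synaptotagmin family were led by Rph3a, which encodes the Rab3 effector rabphilin, at 150.2 and 153 TPM. Doc2a and Doc2b, sensors linked to spontaneous and asynchronous release, were at 23.1 and 20.7 (21.9 ± 1.68) and at 10.7 and 7.91 TPM (9.28 ± 1.94). Doc2a overlaps exons of Ino80e (23.2 TPM) on the opposite strand. Whether the counting used strand is not given, so the reads of these genes may not be fully separated. In the main tables the deposited posterior SD of the Doc2a count, a measure of uncertain read assignment, was 0 in both libraries.

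Among vesicle proteins, Syp, which encodes synaptophysin, was at 887 and 825 TPM and ranked 27 among detected protein-coding genes. Its relative Synpr was at 55.3 and 50.2 TPM, and Syp exceeded it 16.2 ± 0.289-fold. The Syp level includes Syp-206, a noncoding model of 433 bases given 34.7% and 32.1% of the gene in the main tables and 0% in the other quantification. There, 29.7% went to Syp-202, an incomplete model of 494 bases, while the complete Syp-201 held 64.3 ± 1.27% in the main tables and 70.1 ± 0.705% in the other.

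The synapsins, which tether vesicles in reserve clusters, were Syn1 at 235 and 244 TPM, Syn2 at 207 and 200.2 and Syn3 at 14.2 and 13.6. Syn1 exceeded Syn2 only 1.18 ± 0.0588-fold, and it was higher in both libraries. The ratio was 1.12 ± 0.0570 in the other quantification, and over complete coding transcripts it was 1.39 ± 0.172 and 1.69 ± 0.106. Syn3 overlaps exons of Timp3 on the opposite strand, which stood at 28.3 TPM, above Syn3 itself. Syn1 overlaps Araf in the same way (83.5 TPM).

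Synaptogyrins are small vesicle proteins related to synaptophysin. Syngr1 was at 198 and 189 TPM and Syngr3 at 86.3 and 78.0, a ratio of 2.36 ± 0.0929. It was 3.30 ± 0.0658 in the other quantification, where Syngr1-204, an incomplete model of 479 bases, held 27.2% of Syngr1 against 0% in the main tables. Among the SV2 genes, whose products are vesicle glycoproteins that act in release, Sv2a was at 194 and 180.1 TPM and Sv2b at 174 and 170.4. Their order was not stable: Sv2a over Sv2b was 1.09 ± 0.0402 in the main tables, 0.939 ± 0.0524 in the other quantification, and 0.914 and 0.874 over complete coding transcripts. Sv2c was at 15.3 and 12.4 TPM (13.8 ± 2.07).

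Vesicular glutamate transporter genes differed most among the 16 pairs compared. Slc17a7, the transporter of cortical glutamatergic terminals, was at 588 and 586 TPM, and Slc17a6, that of thalamic and subcortical ones, at 18.6 and 13.0. The ratio was 31.6 in replicate 1 and 45.0 in replicate 2, with Slc17a7 nearly equal in the libraries. Part of the Slc17a6 value was Slc17a6-202, a noncoding model of 655 bases with 33.7% of the gene in replicate 1 and 19.0% in replicate 2. Over complete coding transcripts the ratio was 50.1 ± 4.96, and 50.2 ± 5.03 in the other quantification.

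None of the 13 active zone and priming genes exceeded the mean of Rims1, 169 TPM, a level passed by members of every other role. The priming factor genes were Unc13a at 128 and 138 TPM, Unc13b at 26.8 and 31.3 and Unc13c at 10.4 and 9.30 (9.88 ± 0.813). Unc13a exceeded Unc13b 4.60 ± 0.268-fold in the main tables and 4.65 ± 0.621-fold in the other quantification. The Rims genes, whose products link vesicles with calcium channels, were Rims1 at 163 and 174 TPM, Rims3 at 79.1 and 80.1, Rims2 at 74.8 and 75.1 and Rims4 at 38.1 and 37.7. Rims1 exceeded Rims2 2.25 ± 0.0959-fold.

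Of the giant scaffolds, Bsn (bassoon) was at 121 and 133 TPM and Pclo (piccolo) at 63.6 and 68.1, a ratio of 1.92 ± 0.0355 that was 1.90 ± 0.0242 in the other quantification. Erc2, a scaffold of the neuronal active zone, was at 96.6 and 98.9 TPM and Erc1, its widely expressed relative, at 21.5 and 20.9. The liprin genes were Ppfia3 at 71.5 and 70.2 TPM and Ppfia2 at 35.9 and 35.7. Erc2 over Erc1 was 4.61 ± 0.163 but over complete coding transcripts 6.87 ± 0.614 in the main tables and 9.19 ± 1.49 in the other, and 50.0 ± 0.784% of Erc1 was assigned to models without a coding product. The liprin ratio of 1.98 ± 0.0177 was 1.83 ± 0.00363 in the other quantification, and over complete coding transcripts it was 1.85 ± 0.0442 and 1.14 ± 0.118.

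The recycling genes were led by Dnm1, at 581 and 579 TPM, and Nsf, the ATPase that disassembles SNARE complexes, at 440.0 and 433. The Nsf adaptors were Napb, the brain form, at 163 and 155 TPM (159 ± 5.49) and Napa at 120.5 and 119 (119.7 ± 1.12). Synj1, which encodes the phosphatase synaptojanin, was at 157 and 149.6 TPM, and Amph, the amphiphysin gene, at 98.3 and 96.4. Napb exceeded Napa 1.33 ± 0.0334-fold in the main tables. In the other quantification the ratio was 1.11 in replicate 1 and 0.898 in replicate 2, while over complete coding transcripts it was 2.03 ± 0.0713 and 2.09 ± 0.0147. Models without a coding product held 35.7% of Napa in the main tables and 53.0% in the other.

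**Figure D2:**
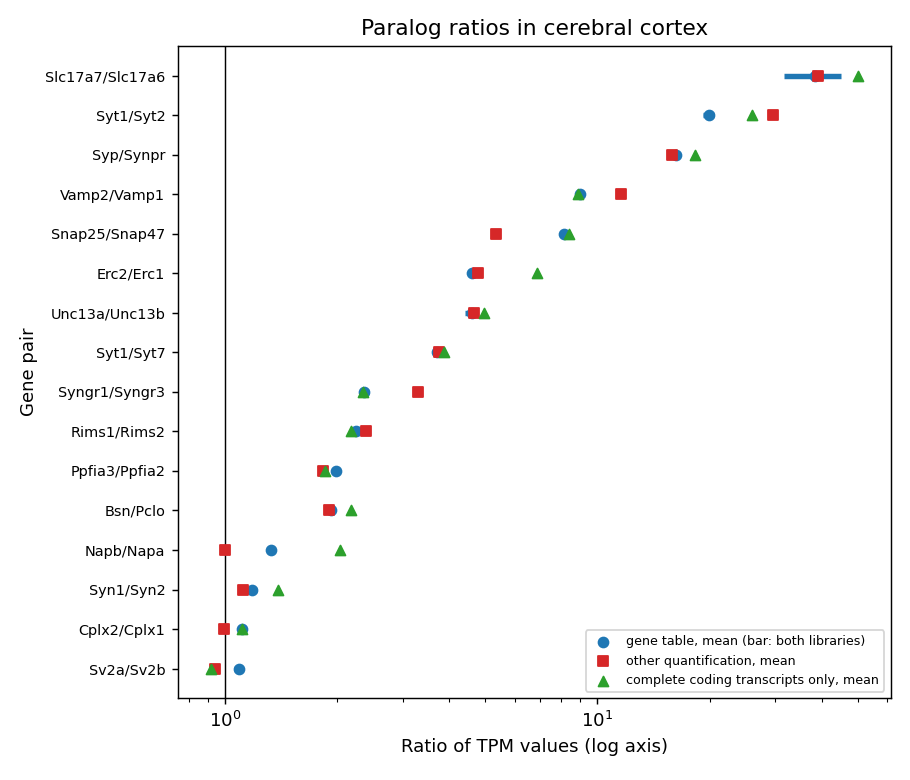
Ratio of TPM (log axis) for 16 pairs of related genes: circles are the means of the main tables with a bar from one library to the other, squares the means of the other quantification, and triangles the main tables over complete coding transcripts only. The line marks a ratio of 1, which Sv2a/Sv2b and Cplx2/Cplx1 cross between the quantifications.

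In all 17 families the same member led in both libraries, and in 15 it also led in both quantifications, the exceptions being Sv2 and the complexins. Paralogs shared almost no sequence of the length used to check for ambiguous reads: of the 16 pairs, 14 shared 0% of their 31-base words, Cplx2 and Cplx1 shared 0.0914%, and Unc13a and Unc13b 0.0156%. The deposited posterior SD, which measures how uncertain the assignment of reads to a gene is, was above 0 for 1 member, Syt11. Exons of 19 members overlap those of another gene, on the opposite strand except for Bsn and the miRNA gene Gm47303.

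TPM was higher in the other quantification for every member, by 1.11 to 2.43-fold with a median of 1.51, beside a median of 1.57 over detected protein-coding genes. Counts differed little, by 1.00 to 1.17-fold with a median of 1.07. At least 2-fold higher TPM was found for 5 members, in 11.9% of detected protein-coding genes: Snap47 (2.43), Rph3a (2.38), Syt3 (2.18), Syngr1 (2.12) and Napa (2.06). In each of the 5, the other quantification gave a larger share of the gene to incomplete or noncoding models. This was not particular to the 5, as it also held for members under 2-fold, among them Vamp2, Syn2, Syngr3 and Ppfia3. The cause of the higher TPM was not tested. Snap47-206, a model of 502 bases, held 37.2 ± 5.48% of Snap47 in the other quantification and 0.964 ± 0.118% in the main tables. Rph3a-202, of 750 bases, held 30.8 ± 2.72% and 0.107 ± 0.151% of Rph3a.

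Transcript forms were compared for the 49 members with more than 1 annotated transcript; the other 5 have 1. The leading transcript was the same in both animals for 46 of the 49. It was the same in both quantifications for 40 of 49 members (81.6%), beside 76.1% of detected protein-coding genes with 2 or more transcripts. The 9 exceptions were Rph3a, Syn1, Syn2, Synpr, Sv2b, Erc2, Ppfia3, Amph and Synj1. When transcripts with the same complete coding sequence were merged, 23 of the 27 members with 2 or more coding forms had the same leading form in both quantifications (85.2%, beside 84.2% of detected protein-coding genes), and Syn1, Synpr, Erc2 and Amph did not.

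**Figure D3:**
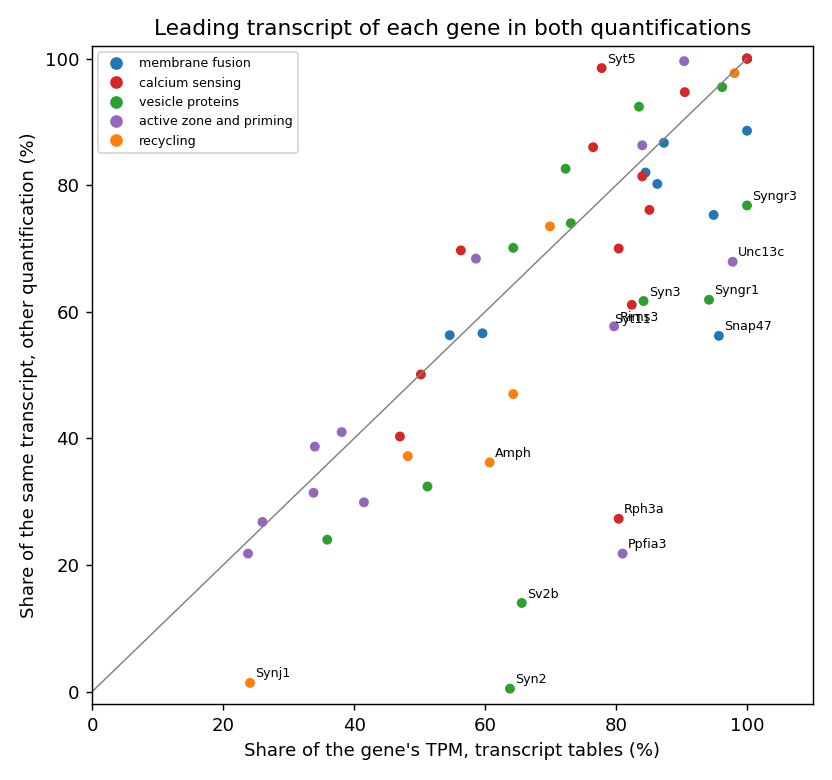
Share of each gene's TPM held by its leading transcript in the main transcript tables (x axis, %) and share of the same transcript in the other quantification (y axis, %), with the means of 2 animals as points coloured by role. Points below the diagonal, among them Syn2, Sv2b, Ppfia3, Rph3a and Synj1, are transcripts that the other quantification gave a smaller share.

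Several of the disagreements were between transcripts that differ outside the coding sequence. Syn2-203, of 479 amino acids, held 63.8 ± 5.88% of Syn2 in the main tables and 0.462% in the other, where Syn2-202, with the same coding sequence, held 45.8 ± 0.329%. Together these gave 64.1 ± 5.48% and 46.2%, and the longer Syn2-201 of 586 amino acids was stable at 21.1 ± 0.857% and 19.9 ± 0.743%. Sv2b was split differently among 3 transcripts, yet its form of 683 amino acids held 99.1% in both. The 3 Rph3a transcripts of 681 amino acids held 99.9 ± 0.151% and 69.2%, and the 2 Ppfia3 transcripts of 1194 amino acids 84.6 ± 0.830% and 56.8%.

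Coding forms of 4 genes could not be ranked. For Syn1, the form of 706 amino acids held 47.9% and 54.5% in replicates 1 and 2 and that of 670 amino acids 52.1% and 45.5%, so the order turned between the animals. The other quantification gave 67.6 ± 4.53% to the shorter form. For Amph, the form of 690 amino acids held 60.7 ± 2.30% in the main tables and 36.2 ± 4.17% in the other, and that of 686 amino acids 38.1 ± 2.29% and 62.0 ± 4.39%. In Synpr the forms of 285 and 265 amino acids held 23.1 ± 1.57% and 34.1 ± 6.46% in the main tables but 35.3 ± 5.91% and 19.8 ± 7.95% in the other. Erc2 was split among Erc2-208 (23.8 ± 2.92%), Erc2-210 (18.6 ± 4.96%), Erc2-201 (14.4 ± 0.560%) and Erc2-205 (14.4 ± 0.589%), and Erc2-210 led in the other quantification at 31.9 ± 3.00%.

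Other members had 1 dominant form in both quantifications. The leading transcript held at least 80% of the gene in both for 11 of the 49. Among them, Stx1a-201 held 87.3 ± 1.12% and 86.7 ± 1.68%, Vamp1-201 of 118 amino acids 86.3 ± 1.66% and 80.2 ± 2.80%, Bsn-201 90.4 ± 0.498% and 99.6 ± 0.0356%, Napb-201 98.1 ± 0.854% and 97.7 ± 1.00%, and Slc17a7-201 96.2 ± 0.914% and 95.5 ± 1.40%. The second Vamp1 form, Vamp1-203 of 117 amino acids, held 10.4 ± 2.20% and 14.1 ± 2.57%. Sv2c-201 of 727 amino acids held 72.3 ± 1.26% and 82.6 ± 0.998%, with the form of 667 amino acids at 26.9 ± 1.38% and 16.4 ± 2.38%. Pclo-202 of 4863 amino acids led at 58.6 ± 2.90% and 68.4 ± 1.96% over Pclo-201 of 5068 amino acids at 21.4% and 20.6% in the 2 libraries and 17.9 ± 0.647%.

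In several genes much of the level lay in models without a complete coding sequence. Models with an incomplete coding sequence held 51.1 ± 0.525% of Rims1 and 45.2 ± 1.64% of Rims2, with 50.6% and 42.1% in the other quantification. Rims1-202, incomplete and 2411 bases long, led Rims1 at 33.8 ± 0.457%, and the complete Rims2-201 of 1572 amino acids led Rims2 at 26.0 ± 0.282%. Erc1 was led by Erc1-206, annotated as a target of nonsense-mediated decay, at 41.5 ± 0.627% and 29.9 ± 0.753%, while its form of 1120 amino acids, over 2 transcripts, held 46.3 ± 0.485% and 38.0%. Synj1 was at 67.1 ± 2.47% incomplete models in the main tables and 35.5% in the other. Cplx3 was led by Cplx3-203, a model of 46 amino acids and 540 bases, at 59.6 ± 10.2%. This share rested on 28.9 and 26.8 counts in replicates 1 and 2, of 184 and 110 for the gene. Most counts, 153 and 83.2, went to Cplx3-201 of 158 amino acids and 2859 bases, which held 38.9 ± 8.06% of the length-corrected TPM.

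Cassette exons, which are kept in some transcripts and skipped in others, give a view of the forms by single exons. Exons of at most 300 bases with annotated transcripts both for and against them numbered 56 in 17 members, and 35 of them, in 10 members, had 10 to 90% inclusion in all 4 values. Of these 35, 31 lay within 10 percentage points between the quantifications, 32 had an SD of at most 3 points over the animals, and 25 had a length that is a multiple of 3. The share of the leading transcript, by comparison, moved by over 10 points between the quantifications for 24 of 54 members, although the 35 exons were selected on their values and those transcripts were not. The exons of a gene share its transcripts and are not independent.

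The Snap25-201 exon was at 84.2% and 85.4% inclusion in replicates 1 and 2 (84.8 ± 0.803%), and the Snap25-202 exon at 15.8% and 14.6%. The other quantification gave 82.4% and 17.6%. The Snap25-201 exon is the downstream one of the pair, usually called b and known as the form of the mature brain. For Dnm1, the exon of Dnm1-201 was at 79.7% and 76.7% (78.2 ± 2.13%) and that of Dnm1-202 at 20.2% and 23.2%, with 68.8% and 30.4% in the other quantification. In both genes 1 exon of the pair prevailed in both animals and both quantifications.

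The 57-base exons of the Unc13 genes had intermediate inclusion values in both genes. The Unc13a exon was at 50.4% and 50.1% (50.3 ± 0.224%) and at 55.0% in the other quantification. It separates Unc13a-208 of 1731 amino acids, at 34.0 ± 0.885% of the gene, from Unc13a-201 of 1712, at 33.6 ± 0.574%. Unc13a-208 is 5654 bases long and held 5375 and 5467 counts in replicates 1 and 2, and Unc13a-201, of 10255 bases, 9657 and 9947. The near-equal inclusion thus depends on the length correction, an uncertainty that the SD over the libraries does not cover. The Unc13b exon was at 61.0% and 60.9% (61.0 ± 0.0802%) and at 64.6% in the other quantification. Unc13b-216 of 1982 amino acids, which contains the exon, led that gene at 38.1 ± 0.0798%. Unc13b-201 of 1590 amino acids, which skips it, held 22.0 ± 0.0812%. These transcripts have 33 and 39 exons, so they differ by more than the 57-base exon. The Unc13b value therefore reflects the shares of transcripts that also differ elsewhere, and not the choice of this exon alone.

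For Stxbp5, exons of 48 and 60 bases occur together in Stxbp5-201 and had an inclusion of 34.9% and 32.8%, with 30.6% in the other quantification. Accordingly the tomosyn form of 1116 amino acids without them, Stxbp5-209, led at 54.6 ± 1.11% over Stxbp5-201 of 1152 amino acids at 29.2 ± 2.38%. The 12-base exons of Rims1 shown above were at 34.6 ± 1.73% and 44.0 ± 1.26%, with 32.1% and 40.5% in the other quantification, and that of Erc2 at 79.7 ± 0.215%, with 85.5%. An exon of 66 bases in Rims2 was at 51.6 ± 0.215% and 49.9%.

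Of the 35 exons at 10 to 90% inclusion, the 4 that moved by over 10 points between the quantifications were in Syt7 and Synj1. In Syt7, exons of 132 and 123 bases were at 73.5 ± 2.52% and 76.8 ± 3.60% in the main tables and at 60.4% and 60.1% in the other. The form of 611 amino acids, Syt7-202, led Syt7 in both, at 47.0 ± 1.29% and 40.3 ± 0.893%. In Synj1, an exon of 24 bases was at 73.7 ± 2.38% in the main tables and 26.3% in the other, a turn of the majority among the transcripts scored for it. Left out of that value was Synj1-206, with a version of the exon of 21 bases, which held 5.97% and 21.4% of the gene. The 21-base version was counted as a separate exon, at 26.0 ± 0.0712% and 31.5%. Another Synj1 exon, of 48 bases, was at 67.8 ± 1.53% and 85.4%. Outside that range, an exon of 99 bases in Synpr was at 1.05 ± 1.19% and 17.2%, and another exon of 24 bases in Synj1 at 83.4 ± 0.566% and 97.0%.

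**Figure D4:**
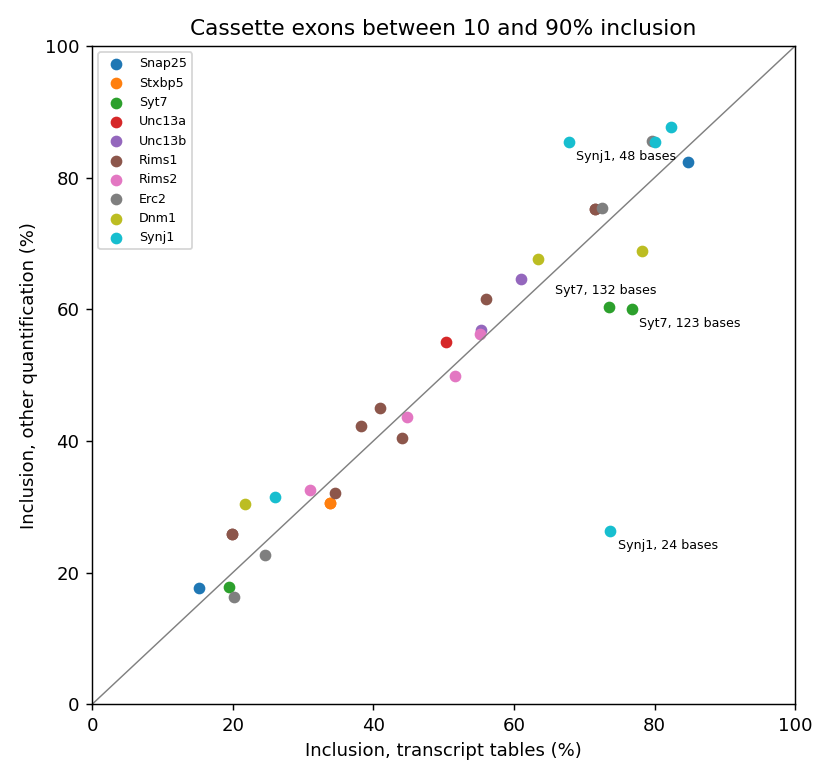
Inclusion (%) of the 35 cassette exons with 10 to 90% inclusion in all values, in the main transcript tables (x axis) and in the other quantification (y axis), as means of 2 animals coloured by gene. Points lie near the diagonal apart from the 4 labelled exons of Syt7 and Synj1, which moved by more than 10 points.

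The animals were compared by the log2 ratio of replicate 2 over replicate 1 on CPM (counts scaled to a common library total) normalised by TMM, with an exact 95% interval that covers counting error only. Beyond counting error were 29 of 54 members, 20 lower and 9 higher in replicate 2. Over all 18490 genes that passed this minimum of 10, 22.6% were beyond it (11.6% lower and 11.0% higher), and 27.4% of the 12817 that passed a minimum of 100. Depth narrows these intervals: from a mean count of 1000 upwards, 38.2% of 5754 genes and 27 of 50 members were beyond counting error. The differences were small, with a median log2 ratio of -0.03, 46 members within 0.15 of 0, and 0 members at least 2-fold apart, against 1.80% of all genes. A single animal stands on each side, so no difference here has a replicate check.

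The directions below are relative to the TMM scaling, since 48 of 54 members were higher and 1 lower with scaling to the spike-ins. In the active zone and priming group, 6 of 13 members were higher in replicate 2 (Unc13a, Unc13b, Rims1, Rims3, Bsn and Pclo) and 1 was lower (Unc13c). Among vesicle proteins, 8 of 12 were lower and 1, Syn1, higher. Fusion genes had 5 lower and 1 higher of 9. The calcium sensing group had 4 lower and 1 higher of 14, and recycling genes 2 lower (Nsf and Napb) and 0 higher of 6. Scaled by TMM, the median log2 ratio was 0.04 in the active zone group and -0.07 among vesicle proteins.

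Transcript length differed between these groups. The median effective length was 5333 bases in the active zone group and 3124 among vesicle proteins, and it was 4612 for the 9 higher members against 3489 for the 20 lower ones and 3284 for the 25 that were neither. Fusion genes were the shortest (median 2033 bases), with a median log2 ratio of -0.04 against -0.07 among vesicle proteins. Over all genes from a mean count of 1000 upwards, those under 2000 bases were lower in 36.0% and higher in 8.31% of cases, and those of at least 6000 bases lower in 9.22% and higher in 39.4%. The medians of these classes were -0.06 and 0.04. The part of length in the members' differences was not tested.

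**Figure D5:**
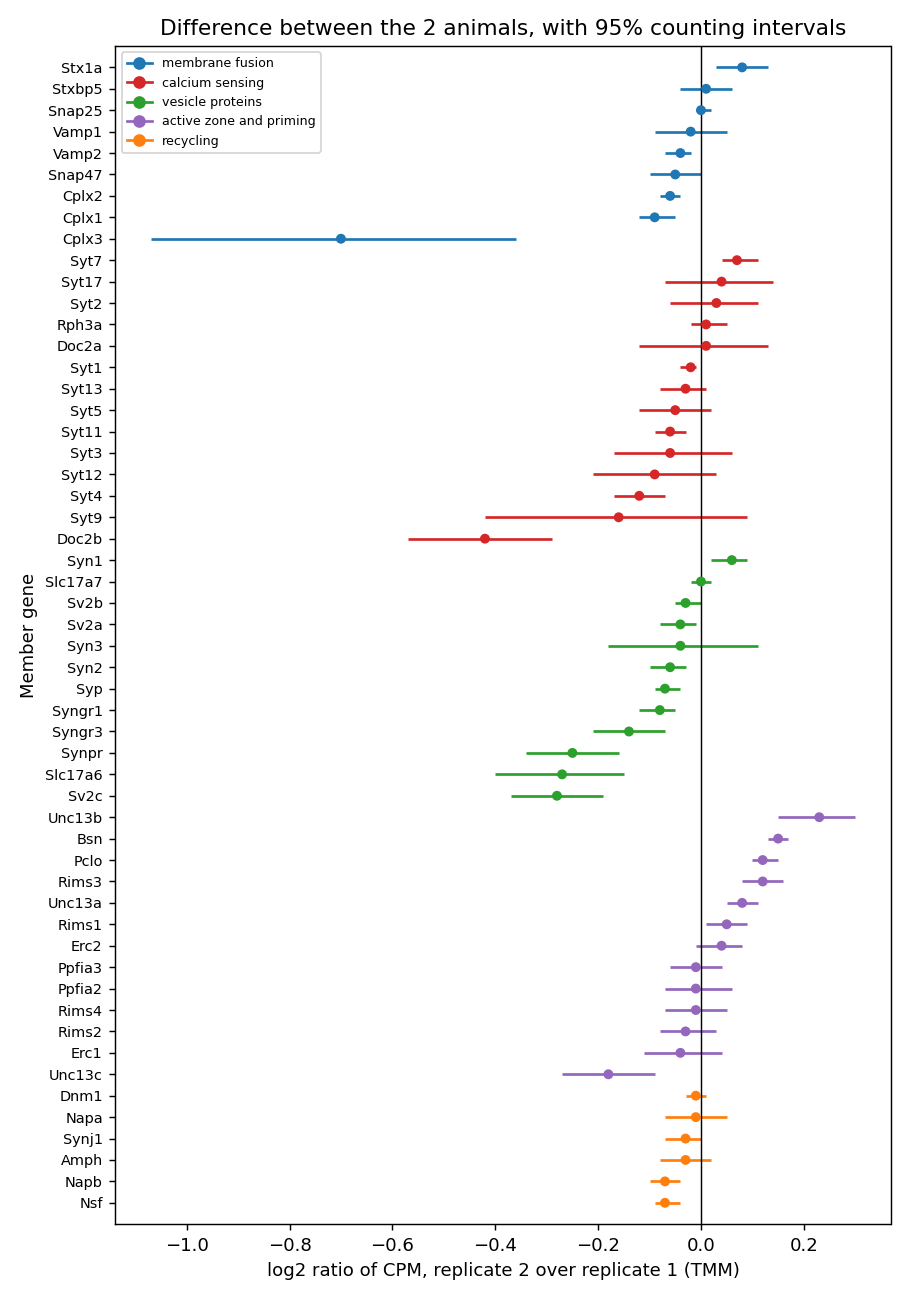
log2 ratio of replicate 2 over replicate 1 for each member (points) with its 95% counting interval (bars), coloured by role. On this TMM scale Cplx3 and Doc2b lie furthest below 0, and Unc13b, Bsn, Pclo and Rims3 furthest above, while most points lie within 0.15 of 0; with spike-in scaling 48 members are higher.

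Of the 5 members that fell furthest below 0, 4 had mean levels under 20 TPM, the exception being Synpr (52.7 ± 3.62). Not all members of low level differed, as Syn3 (-0.04) and Syt12 (-0.09) had intervals that include 0. Cplx3 counted 184 and 110 reads in replicates 1 and 2, a log2 ratio of -0.70 (interval -1.07 to -0.36). Doc2b counted 988 and 720 reads, a log2 ratio of -0.42 (-0.57 to -0.29). Sv2c counted 2336 and 1886 reads (-0.28), Slc17a6 1159 and 938 (-0.27) and Synpr 2094 and 1726 (-0.25), all lower in replicate 2 and none with an interval that reaches 0. On the TPM scale the difference in Slc17a6 was larger (18.6 and 13.0), beside the lower share of its short model given above. With scaling to the spike-ins, which moved the median of all genes to 0.32, Sv2c, Slc17a6 and Synpr turned to 0.04, 0.04 and 0.07. Cplx3 stayed lower at -0.39, and Doc2b, at -0.11, was no longer beyond counting error.

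For some of these genes, markers of a region that expresses them were also lower in replicate 2. SV2C is known from basal ganglia, and all 10 striatal markers were lower, with a median of -1.01. Cplx3 is itself a marker of subplate-derived neurons, and Nxph4, Moxd1 and Trh of that list were at -0.48, -0.31 and -0.38, while Ccn2 was at -0.11. Synpr is part of the list for claustrum and piriform cortex, whose other members Nr4a2, Lxn, Ntng2 and Gng2 were at -0.63, -0.41, -0.18 and -0.11, all lower beyond counting error. The thalamus list, to which Slc17a6 belongs, was mixed: Prkcd was lower (-0.32), Rora higher (0.06), and Tcf7l2 (-0.12), Ntng1 (-0.12) and Lef1 (0.27) had intervals that include 0. Lower medians were not limited to these lists. They were -0.28 for oligodendrocytes (6 of 6 lower), -0.16 for inhibitory neurons (6 of 8), -0.28 for hippocampus (2 of 3) and -0.97 for cerebellum (2 of 3). Medians lay above 0 for cortical glutamatergic neurons (0.03), endothelial cells (0.02) and choroid plexus (0.28). The part of tissue composition in the members' differences was not tested.

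The genes highest in replicate 2 were Unc13b, with 2694 and 3089 reads and a log2 ratio of 0.23 (0.15 to 0.30), Bsn with 39372 and 42636 (0.15), Rims3 with 9016 and 9573 (0.12), Pclo with 21435 and 22859 (0.12) and Stx1a with 6104 and 6319 (0.08). Their intervals all lay above 0. Snap25 at 0.00, Slc17a7 at -0.00 and Dnm1 at -0.01 were among the most abundant members and had intervals that include 0.

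Of 77 other genes of the vesicle cycle that were listed as partners or paralogs of the members, 76 were found and 67 were detected. They summed to 5602 and 5407 TPM, below the members. Among the most abundant were Sncb at 400.0 ± 15.2 TPM, the vesicle GTPase gene Rab3a at 386 ± 24.0 and the clathrin adaptor gene Ap2m1 at 381 ± 22.4. Of 71 compared between the animals, 22 were lower and 4 higher in replicate 2, with a median log2 ratio of -0.03, the same median as that of the members. Over all genes that passed the minimum of 10, 11.6% were lower and 11.0% higher. From a mean count of 1000 upwards, 38.2% were beyond counting error in either direction. Within the members' families, paralogs outside the member list included Napg (65.7 ± 3.37 TPM), Dnm3 (45.0 ± 0.0141) and Syt16 (38.2 ± 2.46), and the third glutamate transporter gene Slc17a8 was at 1.11 ± 0.0566 TPM. Cplx4 had 0 counts in each library, and a true level of up to 0.0909 and 0.0933 CPM would be possible at this depth.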

How the data were processed

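Total RNA of 2 left cerebral cortices was measured, with 3 deposited tables per library. Per the file headers and the description beside them, the gene table and the first transcript table were made by the authors from a transcriptome alignment on mm10 with GENCODE M21, without pooling of replicates. They hold expected counts (estimated, not whole), the posterior SD of the count, which the authors deposited on the count scale, and TPM, which the authors scaled to 1000000 over all rows. The other deposited transcript table holds estimated counts and TPM made directly from reads of 1 sequence file. No label or header names the aligner, the programs or whether that file held all reads (not given in the sources used here). The gene tables also hold 96 rows for spike-ins and 26249 without a gene name (1.78e-05% and 2.48e-05% of counts), which were left out.

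TPM was used as deposited, as mean ± SD. Expected counts were rounded, and genes averaging 10 or more were compared in edgeR 4.0.16 (R 4.3.3) by CPM after TMM, with the prior count set to 2, with exact Clopper-Pearson 95% intervals checked on simulated data. Intervals, and the floor of 3 counts (0.0909 and 0.0933 CPM), reflect counting error alone: without molecular identifiers, reads cannot be taken as separate molecules. With 1 animal a side there is no p-value. Ratios were formed within a library. Exons, biotypes and sequences came from GENCODE M21. Alternatives were the other quantification, posterior mean TPM, other thresholds, DESeq2 1.42.0 size factors, spike-in scaling, log2(TPM + 1) and log2(TPM + 0.1), and leaving out each library.

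Named by rule were the leading and lowest member of each family, every member of families of 4 or fewer, the 5 members that differed most in each direction between the animals, the leading transcript of each member and forms at 10% or more in both quantifications. Some are given as counts, and a few are not reported here. The members, families, pairs and lists were chosen with earlier results of these data known. The exon analysis, the merged coding forms, the ratios over complete coding transcripts, the roles and the length classes were chosen after the data were seen.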

Additional observations from a re-analysis of the deposited data

How the results depend on the processing

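All 54 members stayed detected under the other quantification, posterior mean TPM and either library alone. Summed TPM was 15245 in the other quantification and 9401 with posterior means, and the share of protein-coding TPM was 1.90% in the other quantification. Of the 16 pair ratios, 14 kept their direction in the other quantification, 16 with posterior means and 15 over complete coding transcripts, an alternative chosen after seeing the data. Direction was judged by the mean ratio. The 14 include Napb/Napa, whose order turned between the libraries in the other quantification (1.11 and 0.898). In the other quantification the ratios beyond 1 SD of the main value were Vamp2/Vamp1 11.6, Snap25/Snap47 5.33, Syt1/Syt2 29.6, Syn1/Syn2 1.12, Syp/Synpr 15.9, Syngr1/Syngr3 3.30, Rims1/Rims2 2.39, Erc2/Erc1 4.79, Ppfia3/Ppfia2 1.83 and Napb/Napa 1.00, and Sv2a/Sv2b (0.939) and Cplx2/Cplx1 (0.995) reversed. With posterior means Vamp2/Vamp1 was 8.70 and Syp/Synpr 15.9. Over complete coding transcripts they were Vamp2/Vamp1 8.85, Snap25/Snap47 8.38, Syt1/Syt2 26.0, Syt1/Syt7 3.87, Syn1/Syn2 1.39, Syp/Synpr 18.3, Unc13a/Unc13b 4.97, Bsn/Pclo 2.18, Erc2/Erc1 6.87, Ppfia3/Ppfia2 1.85, Napb/Napa 2.03 and Slc17a7/Slc17a6 50.1, and Sv2a/Sv2b reversed at 0.914. The cause was not tested. With 2 libraries, an SD rests on 1 difference. The share of the leading transcript moved by over 10 points in the other quantification for 24 of 54 members and over protein-coding transcripts only for 15. Between the animals, spike-in scaling gave 49 members beyond counting error, 1 lower and 48 higher, and reversed Sv2c (0.04), Slc17a6 (0.04) and Synpr (0.07). No library can be left out of a comparison of 2 animals, and no paired analysis was possible because there is only 1 group. Doc2b (-0.11) was no longer beyond counting error with spike-in scaling.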
